A study of Mus musculus with 12 samples.

Results

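The HOX genes are the homeobox genes of the Hoxa, Hoxb, Hoxc and Hoxd clusters. They were selected by gene symbol, a rule that uses no measured value, with earlier results of these data known, and 38 of the 19057 named genes on the array were members: 10 of the Hoxa cluster, 10 of Hoxb, 9 of Hoxc and 9 of Hoxd. They were measured by 57 of the 45281 probes. The cells were mouse embryonic fibroblasts (MEFs), connective tissue cells cultured from embryos, of genotype Sirt2+/+ (wild type) or Sirt2-/- (knockout of the deacetylase gene Sirt2). Each genotype was kept without treatment or exposed for 4 h to mouse IFNβ, a type I interferon, at 2500 IU/ml, which gave 4 groups of 3 arrays each. From each sample, 150 ng of total RNA was labelled for 1 Illumina bead array with a single colour. Strain, embryonic age, the knockout allele and the number of embryos behind each genotype are not given in the sources used here.

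HOX proteins are transcription factors that give cells along the head-to-tail axis and the limbs their positional identity. Within a cluster the genes lie in the order of their paralogue numbers, and low-numbered genes are switched on earlier and further towards the head than high-numbered ones. Fibroblasts keep in culture a HOX pattern that reflects where in the body they came from, held by the opposing Polycomb and Trithorax chromatin complexes, and retinoic acid activates genes at the low-numbered end.

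Values are log2 intensities after background correction and normalization, and differences are knockout minus wild type or IFNβ minus untreated, given ± SE with n = 3 arrays per group. A gene was called changed at an adjusted p under 0.05 from limma, a linear model fitted to all features with the spread shared among them. The adjustment, by Benjamini and Hochberg, ran over all 12128 tested features. A probe counted as detected on an array at a detection p under 0.05, and a gene was tested if a probe was detected on all 3 arrays of at least 1 group. The lowest level among detected probes lay between 4.87 and 5.0 on the log2 scale, depending on the array. For a gene that no array of a group detected, only a lower bound of the fold can be stated: the mean of the brighter group over the mean, per array, of that lowest level or the probe's own level, whichever was higher.

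Promoter sequences are shown for 3 neighbouring genes of the Hoxd cluster. Hoxd4 and, from a level near background, Hoxd3 were called higher with IFNβ in wild-type cells. Hoxd8, from the same stretch of chromosome 2, did not pass that test. The sequences come from RefSeq in build GRCm38.p6 and cover 250 bases before to 50 after the start of each gene, all on the plus strand. The Hoxd4 window is chr2:74721728-74722027, the Hoxd3 window chr2:74711743-74712042 and the Hoxd8 window chr2:74704365-74704664. The Hoxd3 start used here thus lies between those of Hoxd8 and Hoxd4, out of the order of their numbers. Capitals mark matches to the searched motifs.
Hoxd4: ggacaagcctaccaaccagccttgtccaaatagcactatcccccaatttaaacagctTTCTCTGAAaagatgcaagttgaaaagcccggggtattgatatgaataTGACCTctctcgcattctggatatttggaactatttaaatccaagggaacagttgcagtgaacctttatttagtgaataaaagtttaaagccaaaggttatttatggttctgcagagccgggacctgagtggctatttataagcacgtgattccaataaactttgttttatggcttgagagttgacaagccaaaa
Hoxd3: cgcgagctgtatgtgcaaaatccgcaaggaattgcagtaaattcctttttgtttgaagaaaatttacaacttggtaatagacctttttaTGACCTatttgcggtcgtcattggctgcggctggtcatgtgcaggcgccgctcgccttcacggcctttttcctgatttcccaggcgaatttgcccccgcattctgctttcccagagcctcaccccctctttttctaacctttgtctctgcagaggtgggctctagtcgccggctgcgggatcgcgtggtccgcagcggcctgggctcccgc
Hoxd8: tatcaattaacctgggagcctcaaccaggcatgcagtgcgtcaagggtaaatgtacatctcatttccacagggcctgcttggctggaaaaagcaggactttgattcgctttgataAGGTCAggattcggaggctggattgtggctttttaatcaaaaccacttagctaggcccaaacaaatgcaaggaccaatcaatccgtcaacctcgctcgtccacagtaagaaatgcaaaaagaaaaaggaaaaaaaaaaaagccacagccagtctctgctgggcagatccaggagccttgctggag

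Of the 38 members, 22 had a RefSeq promoter entry (24 entries in all), among them 11 of the tested genes. Motifs were searched on both strands. The interferon-stimulated response element, written as GAAA, any 2 bases and GAAA again, was found in 0 of the 24 HOX promoters and in 3.44% of 32851 promoters of the same length. The STAT site TTCNNNGAA, a motif bound by interferon-activated STAT dimers, was found in 1 of 24, against 8.3% of all promoters. That match is the capital stretch at bases 58 to 66 of the Hoxd4 window, which begins at position −193 relative to the start. Both patterns contain GAA, so a stretch could match both. The retinoic acid receptor half-site AGGTCA was found in 7 of 24 HOX promoters, those of Hoxa5, Hoxb4, Hoxc4, Hoxd3, Hoxd4, Hoxd8 and Hoxd10, and in 16.3% of all promoters. In the Hoxd3 and Hoxd4 windows it lies on the minus strand, read as TGACCT in the printed sequence, beginning at −161 and −145. In the Hoxd8 window it lies on the plus strand, beginning at −135. The Hoxd3 window holds 20 CpG dinucleotides, the Hoxd8 window 6 and the Hoxd4 window 4.

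Between 17091 and 18155 probes were detected per array, and Pearson's r across probes was 0.993 to 0.996 for arrays of the same group. Whether replicates came from separate cultures or embryos is not stated in the labels, and p-values here describe the spread among these samples alone, possibly a technical one. The 6 knockout arrays had less Sirt2 than any of the 6 wild-type arrays, by −2.41 ± 0.18 (adjusted p = 2.41e-07) untreated and −2.86 ± 0.18 (adjusted p = 6.62e-08) with IFNβ. All 6 knockout arrays still detected Sirt2, at 6.04, 6.66 and 6.61 untreated and at 5.86, 6.37 and 6.15 with IFNβ. Xist, the RNA of the inactive X chromosome, was lower in the knockout by −4.28 and −4.27, and the Y-linked Eif2s3y was higher by at least 24.8-fold untreated and by 4.31 on the log2 scale with IFNβ. Sirt2 genotype and other differences between the embryos the cells came from cannot be told apart. Untreated knockout arrays 2 and 3 stood apart from array 1 of their group: Xist was at 6.85 and 6.07 there against 4.27 on array 1. Treated knockout arrays 2 and 3 had Xist at 6.33 and 5.05 against 4.36 on array 1, and treated wild-type array 2 had Eif2s3y at 6.78 against 4.65 and 4.32 on the other arrays of its group. A fit without these 2 arrays is therefore given beside the counts of HOX genes, and beside single genes where it changes the call or moves the value. It leaves 1 untreated knockout array, which is assumed to vary like the arrays of the other groups, so its p-values hold no spread from that group.

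Markers of the labelled cell type moved with the genotype. Of 14 fibroblast genes, 13, 12, 10 and 10 were detected on all 3 arrays of the untreated wild-type, treated wild-type, untreated knockout and treated knockout groups. Their summed intensity was between 31065 and 38027, between 30817 and 31052, between 17984 and 19243, and between 16840 and 17869 in the same order. Of 13 tested, 9 were lower and 0 higher in the untreated knockout, against 24.2% and 27.1% of all features, and 8 were lower and 1, Col1a1, higher in the treated one (0.65, adjusted p = 0.0106). Col1a1 was at 0.42 (adjusted p = 0.0743) and Fn1 at 0.23 (adjusted p = 0.336) untreated. Fap and Lum were detected on no knockout array. Lum was not detected on any untreated wild-type array either and was not tested. Fap was near the lowest detected level in the wild type, where 3 untreated arrays and 1 treated array detected it. Dcn, a matrix proteoglycan, was lower in the knockout by −4.20 untreated. Of 10 epithelial genes, 3 were detected on all arrays of each wild-type group and 1 in each knockout group, with summed intensities of 885 to 1165 and 997 to 1139 in the wild type against 292 to 322 and 276 to 284 in the knockout; Epcam, Esrp1, Cldn4 and Krt5 were detected on no array. Of 10 neural genes, 3 were detected on all arrays of every group, with sums of 1194 to 1432 and 1092 to 1281 in the wild type and 2380 to 2667 and 2304 to 2511 in the knockout. Among these 3 neural genes, Nes and Map2 were higher in the knockout in both comparisons, and Sox2 was lower, by −1.67 untreated and −1.34 with IFNβ. Of 7 haematopoietic genes with a probe, 1 (Cd14) was detected on all arrays of every group. Its list had sums of 585 to 614 and 547 to 644 against 309 to 336 and 296 to 314, and Ptprc was detected on no array. None of 8 endothelial genes was detected on all 3 arrays of any group (sums of 176 to 204 over the 12 arrays), and of 7 skeletal muscle genes with a probe only Actn2 was, in the untreated knockout (sums of 153 to 187). The part of these differences in the HOX results was not tested. Since whole cultures were measured, fewer cells with a transcript and less transcript per cell cannot be told apart.

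More HOX genes were detected in wild-type than in knockout cells, and the Hoxa genes were detected in both alike. The number of the 38 members with a detected probe was 19, 21 and 21 on the untreated wild-type arrays and 21, 22 and 21 on the treated ones. On the knockout arrays the number was 12, 17 and 17 without treatment and 13, 14 and 15 with IFNβ. Every wild-type array thus had more detected HOX genes than any knockout array. Within the Hoxa cluster the count was 6 or 7 on every array. Within the Hoxb cluster it was 5 or 6 on the wild-type arrays, 1, 5 and 4 on the untreated knockout arrays, and 3, 4 and 3 on the treated ones. The low count of 1 was on untreated knockout array 1. Within the Hoxc cluster it was 3 or 4 on the wild-type arrays, 2, 3 and 4 on the untreated knockout arrays and 2, 1 and 3 on the treated ones, so the genotypes overlapped. Within the Hoxd cluster it was 4 or 5 on the wild-type arrays, 3 on each untreated knockout array, and 1, 2 and 3 on the treated ones.

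In all 20 members were tested: 6 of the Hoxa cluster, 6 of Hoxb, 3 of Hoxc and 5 of Hoxd. On all 3 arrays of the group, 18 were detected in untreated wild-type cells, 20 in treated wild-type cells, 11 in untreated knockout cells and 10 in treated knockout cells. A gene that passed the detection filter through the wild-type groups alone was bound to be higher there, so counts over tested members are given as descriptions. These genes were Hoxb2, Hoxb3, Hoxb5, Hoxb6, Hoxc6, Hoxc9, Hoxd3 and Hoxd4. The 18 others were not tested. Among them, 12 were detected on no array: Hoxa6, Hoxb1, Hoxb8, Hoxb9, Hoxb13, Hoxc5, Hoxc8, Hoxc12, Hoxc13, Hoxd1, Hoxd12 and Hoxd13. Hoxc4 was detected on 7 arrays of the 12, Hoxa2 on 3, Hoxa3 on 2, and Hoxa10, Hoxc11 and Hoxd11 on 1 each. The untested genes thus include members of all 4 clusters and of both ends of the numbering.

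**Figure D1:**
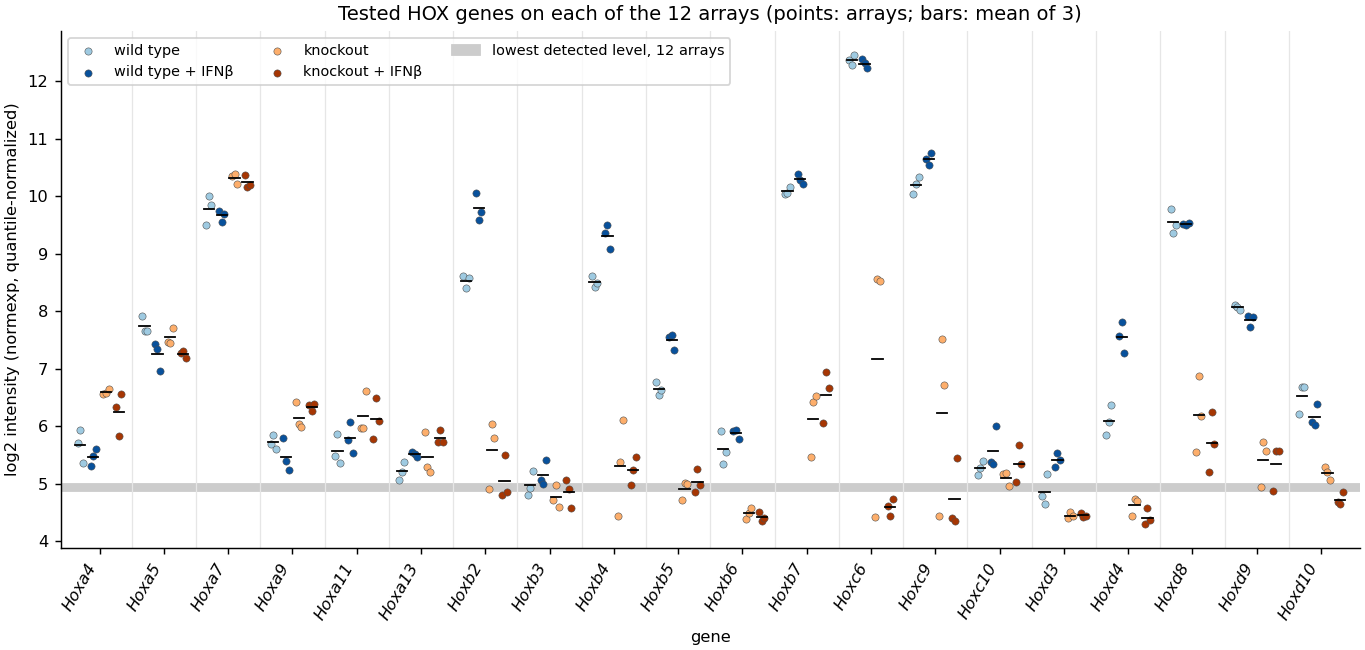
Log2 intensity (normexp-corrected and quantile-normalized, vertical axis) of the 20 tested HOX genes on each of the 12 arrays, with 1 point per array, a bar at the mean of each group of 3 and a grey band at the lowest detected level of the arrays. The knockout arrays lie near the band for most Hoxb, Hoxc and Hoxd genes and above the wild-type arrays of the same treatment for Hoxa4, Hoxa7 and Hoxa9.

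The first comparison asked which HOX genes differed between untreated knockout and wild-type cells. Of 20 tested members, 4 were higher in the knockout, against 27.1% of all features, and 12 were lower, against 24.2% of all features; called either way were 16 of 20, against 51.2%. The median difference of the 20 was −1.23, beside 0.05 over all features. All 12 lower genes belonged to the Hoxb, Hoxc and Hoxd clusters, where 14 were tested, and all 4 higher genes to Hoxa, where 6 were. Of the lower genes, only Hoxb4, Hoxb7, Hoxd8, Hoxd9 and Hoxd10 passed the detection filter through a knockout group as well. The medians by cluster were 0.48 for Hoxa, −2.34 for Hoxb, −3.97 for Hoxc and −1.47 for Hoxd. Leaving out untreated knockout arrays 2 and 3 gave 0.62, −2.77, −5.76 and −1.65 in the same order. The groups did not overlap for 4 higher and 12 lower members, against 30.9% and 27.3% of all features. Without untreated knockout arrays 2 and 3, 4 members were higher and 11 lower, against 19.5% and 18.4% of all features, with a median of −1.23. In that fit Hoxa4 and Hoxa7 were at 0.89 and 0.56, and Hoxd9 and Hoxd10 at −3.13 and −1.23. Hoxb5, Hoxb6 and Hoxd4 were lower by at least 3.31-fold, 1.61-fold and 2.25-fold, and all 7 of these genes were still called.

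The second comparison asked the same under IFNβ, on other arrays. Of 20 members, 3 were higher in the treated knockout than in the treated wild type, against 27.1% of all features, and 12 were lower, against 23.2%; called either way were 15 of 20, against 50.3%. The median was −1.44, beside 0.06 over all features. The 12 lower genes were the same 12 as without IFNβ, and 3 of the 4 higher genes, Hoxa4, Hoxa7 and Hoxa9, were higher in both comparisons. The medians by cluster were 0.46 for Hoxa, −3.10 for Hoxb, −5.90 for Hoxc and −2.51 for Hoxd. Groups did not overlap for 4 higher and 12 lower members, against 32.3% and 26.8% of all features. In the fit without untreated knockout arrays 2 and 3, the counts were again 3 and 12, against 26.6% and 22.9% of all features.

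**Figure D2:**
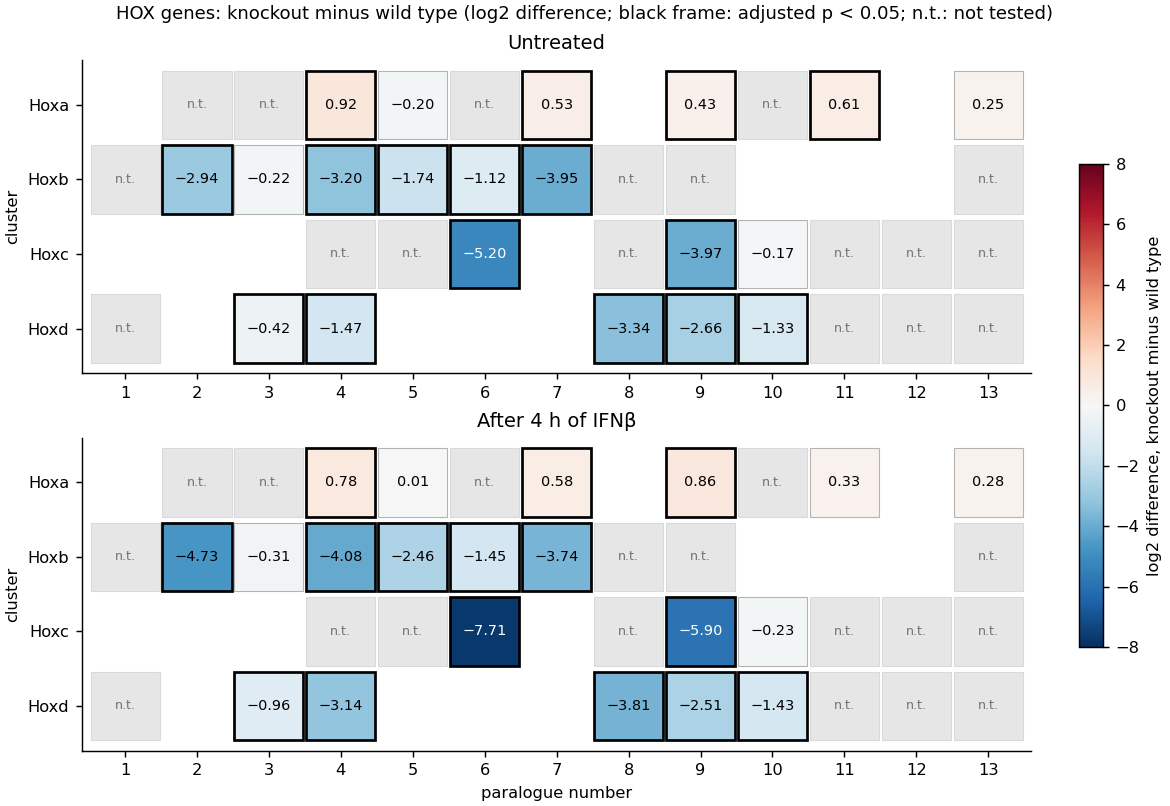
Log2 difference of knockout minus wild type for the 38 HOX genes, with clusters in rows and paralogue numbers in columns, untreated (top) and after 4 h of IFNβ (bottom); the colour and the printed value give the difference, a black frame marks an adjusted p under 0.05, and n.t. marks genes that were not tested. The Hoxa row is pale and mostly above 0 while the Hoxb, Hoxc and Hoxd rows are below 0, down to a fitted −7.71 for Hoxc6 with IFNβ, which no treated knockout array detected.

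By paralogue number, lower members ranged from Hoxb2 to Hoxd10. The tested genes with higher numbers, Hoxa11 and Hoxa13, were not lower. No Hoxb, Hoxc or Hoxd gene numbered above 10 was tested, so number and cluster cannot be told apart there. The counts that follow stand beside 27.1% of all features higher and 24.2% lower untreated, and 27.1% and 23.2% with IFNβ. Of 3 tested genes numbered 1 to 3, 2 were lower in both comparisons. Of 10 tested genes numbered 4 to 8, 7 were lower and 2 higher in both. Of 7 tested genes numbered 9 to 13, 3 were lower in both, and 2 were higher untreated and 1 with IFNβ. Genes of the same number thus differed in opposite directions between clusters: of the number 4 genes, Hoxa4 was higher and Hoxb4 and Hoxd4 lower, of the number 7 genes Hoxa7 was higher and Hoxb7 lower, and of the number 9 genes Hoxa9 was higher and Hoxc9 and Hoxd9 lower.

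Hoxc6 and Hoxc9, which pattern the brachial and thoracic levels of the body axis, had the largest differences among the members. Hoxc6 was at 12.36, 12.28 and 12.46 on the untreated wild-type arrays and at 12.38, 12.31 and 12.23 on the treated ones. On the untreated knockout arrays it was at 4.42, 8.56 and 8.53, and on the treated ones at 4.61, 4.44 and 4.74. All 6 wild-type arrays were therefore above all 6 knockout arrays, and within the knockout only untreated arrays 2 and 3 were clearly above background. The untreated difference was −5.20 ± 0.77 (adjusted p = 9.96e-05), a 36.7-fold lower level, and against untreated knockout array 1 alone Hoxc6 was at least 174-fold lower. With IFNβ, where no knockout array detected it, it was lower by at least 163-fold (adjusted p = 3.07e-06).

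Hoxc9 was at 10.04, 10.21 and 10.34 in untreated and at 10.65, 10.54 and 10.74 in treated wild-type cells. In the knockout it was at 4.44, 7.52 and 6.72 untreated and at 4.41, 4.36 and 5.45 with IFNβ. It followed the pattern of Hoxc6, with no overlap between genotypes and with untreated knockout arrays 2 and 3 above array 1. The differences were −3.97 ± 0.56 (adjusted p = 6.23e-05) untreated, a 15.7-fold lower level (at least 38.6-fold against untreated knockout array 1 alone), and −5.90 ± 0.56 (adjusted p = 1.90e-06) with IFNβ. Hoxc10, a gene of the lumbar level, was the third tested gene of this cluster. It was at 5.15, 5.27 and 5.41 and at 5.39, 5.35 and 6.0 in wild-type cells, and at 5.18, 5.18 and 4.96 and at 5.04, 5.67 and 5.35 in the knockout, so that the genotypes overlapped. Its differences of −0.17 (adjusted p = 0.463) and −0.23 (adjusted p = 0.330) did not pass the test. A further Hoxc10 probe, not kept, was detected on 1 array of each wild-type group and on no knockout array.

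Hoxb7, a gene of the trunk, was at 10.04, 10.05 and 10.16 in untreated wild-type cells and at 10.38, 10.27 and 10.22 with IFNβ. In the knockout it was at 5.46, 6.42 and 6.52 untreated and at 6.06, 6.94 and 6.66 with IFNβ, and it was detected on all of these arrays. The genotypes were separated by more than 3 log2 units on every pair of arrays. The differences were −3.95 ± 0.25 (adjusted p = 7.32e-08, and −4.62 without untreated knockout arrays 2 and 3) and −3.74 ± 0.25 (adjusted p = 1.06e-07). A further kept probe of Hoxb7 gave −3.75 and −3.85.

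Hoxb2 and Hoxb4 pattern the hindbrain and neck, and Hoxb4 also promotes the self-renewal of blood stem cells. Hoxb2 was at 8.62, 8.40 and 8.57 in untreated wild-type cells and at 4.92, 6.04 and 5.80 in the untreated knockout. With IFNβ it was at 10.05, 9.58 and 9.72 in the wild type and at 4.81, 5.51 and 4.86 in the knockout. No knockout array reached a wild-type array, and 3 of the 6 knockout arrays did not detect the gene. The differences were −2.94 ± 0.26 (adjusted p = 8.42e-07) and −4.73 ± 0.26 (adjusted p = 2.15e-08), and without untreated knockout arrays 2 and 3 Hoxb2 was at least 12.2-fold lower in the untreated knockout.

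Hoxb4 was at 8.62, 8.42 and 8.50 in untreated wild-type cells and at 4.45, 5.38 and 6.10 in the untreated knockout. With IFNβ it was at 9.36, 9.50 and 9.08 against 4.98, 5.25 and 5.47. The untreated knockout arrays were the most spread of the 4 groups for this gene, and they still lay below all wild-type arrays. The differences were −3.20 ± 0.30 (adjusted p = 1.58e-06; at least 12.03-fold without untreated knockout arrays 2 and 3) and −4.08 ± 0.30 (adjusted p = 1.92e-07).

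Hoxb5 and Hoxb6, trunk genes that lie between Hoxb4 and Hoxb7, were lower too. Hoxb5 was at 6.78, 6.54 and 6.64 untreated and 7.56, 7.59 and 7.33 with IFNβ in the wild type, and at 4.72, 5.02 and 4.99 and 4.86, 5.26 and 4.98 in the knockout. Its differences were −1.74 ± 0.13 (adjusted p = 2.43e-07) and −2.46 ± 0.13 (adjusted p = 1.92e-08). Hoxb6 was at 5.93, 5.35 and 5.55 and at 5.92, 5.94 and 5.78 in the wild type and between 4.36 and 4.58 on the 6 knockout arrays, none of which detected it. It was at least 1.61-fold lower untreated (adjusted p = 1.33e-05) and at least 1.89-fold lower with IFNβ (adjusted p = 1.26e-06). For neither gene did the genotypes overlap.

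Hoxb3, a hindbrain gene, was the tested Hoxb gene that passed neither test. Its levels were 4.81, 4.92 and 5.23 untreated and 5.06, 5.0 and 5.42 with IFNβ in the wild type, and 4.72, 4.99 and 4.60 and 5.07, 4.91 and 4.58 in the knockout. These levels were near the lowest detected level, and the groups overlapped. The differences were −0.22 (adjusted p = 0.282) and −0.31 (adjusted p = 0.132). A further kept probe gave −0.32 and −0.61, and with the mean of both probes the treated difference of −0.46 passed (adjusted p = 0.00748).

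All 5 tested Hoxd genes were lower in the knockout in both comparisons. Hoxd8, expressed in the trunk, was at 9.78, 9.35 and 9.50 untreated and 9.52, 9.49 and 9.54 with IFNβ in the wild type, and at 5.55, 6.87 and 6.19 and 5.21, 6.24 and 5.69 in the knockout. No array of one genotype came within 2 log2 units of the other. Its differences were −3.34 ± 0.29 (adjusted p = 8.19e-07, and −4.00 without untreated knockout arrays 2 and 3) and −3.81 ± 0.29 (adjusted p = 2.64e-07).

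Hoxd9 and Hoxd10 take part in limb outgrowth and in patterning the lumbar spinal cord. Hoxd9 was at 8.11, 8.07 and 8.03 and at 7.92, 7.72 and 7.90 in the wild type, and at 4.94, 5.72 and 5.58 and at 4.88, 5.56 and 5.58 in the knockout, with no overlap. Its differences were −2.66 ± 0.21 (adjusted p = 3.15e-07) and −2.51 ± 0.21 (adjusted p = 4.75e-07), and a further kept probe gave −2.77 and −2.73. Hoxd10 was at 6.21, 6.68 and 6.67 and at 6.07, 6.03 and 6.38 in the wild type, and at 5.29, 5.21 and 5.07 and at 4.68, 4.65 and 4.85 in the knockout. The genotypes did not overlap, and the treated knockout arrays did not detect it. The differences were −1.33 ± 0.14 (adjusted p = 4.96e-06) untreated and at least 2.30-fold with IFNβ (adjusted p = 2.59e-06).

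Hoxd3 and Hoxd4, whose promoters are printed above, pattern the neck vertebrae and were detected on none of the 6 knockout arrays. Hoxd4 was at 5.85, 6.07 and 6.36 in untreated and at 7.56, 7.81 and 7.27 in treated wild-type cells, against 4.44, 4.74 and 4.70 and 4.30, 4.57 and 4.36 in the knockout. It was at least 2.26-fold lower untreated (adjusted p = 5.86e-06) and at least 6.02-fold lower with IFNβ (adjusted p = 1.63e-08). Hoxd3 was at 4.78, 4.64 and 5.16 in untreated wild-type cells, where only array 3 detected it, and at 5.29, 5.53 and 5.41 with IFNβ. In the knockout it lay between 4.40 and 4.51. The treated knockout was at least 1.37-fold lower (adjusted p = 3.22e-05). The untreated difference of −0.42 ± 0.12 (adjusted p = 0.0134) is between levels near background, and its call was lost without untreated wild-type array 3 (−0.27, adjusted p = 0.0599) and without untreated knockout arrays 2 and 3 (−0.46, adjusted p = 0.0771).

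The tested Hoxa genes, each detected on all 12 arrays by the probe that stood for it, did not share this direction. Hoxa4, a gene of the neck, was at 5.71, 5.94 and 5.36 untreated and at 5.30, 5.49 and 5.60 with IFNβ in the wild type, and at 6.56, 6.58 and 6.65 and at 6.33, 5.83 and 6.57 in the knockout. Groups did not overlap within either treatment. The differences were 0.92 ± 0.18 (adjusted p = 0.000797, a 1.90-fold higher level) and 0.78 ± 0.18 (adjusted p = 0.00273). Hoxa7, a trunk gene, was at 9.51, 10.01 and 9.84 and at 9.75, 9.55 and 9.70 in the wild type and at 10.35, 10.38 and 10.20 and at 10.38, 10.16 and 10.20 in the knockout, again without overlap. Its level was 1.44-fold higher untreated (0.53 ± 0.13, adjusted p = 0.00377), and the treated difference was 0.58 ± 0.13 (adjusted p = 0.00197).

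Hoxa9, which also acts in blood progenitors and leukaemia, was at 5.70, 5.85 and 5.61 and at 5.80, 5.39 and 5.23 in the wild type, and at 6.43, 6.04 and 5.98 and at 6.38, 6.26 and 6.38 in the knockout. The groups did not overlap. A Hoxa9 probe that was not kept was detected on no array. By the probe that stood for the gene, the treated difference was 0.86 ± 0.15 (adjusted p = 0.000379). The untreated difference was 0.43 ± 0.15 (adjusted p = 0.0306), and its call was lost without untreated wild-type array 1 (0.42, adjusted p = 0.0695) or 3 (0.37, adjusted p = 0.0981), without untreated knockout array 1 (0.29, adjusted p = 0.137), and with the authors' log2 values (0.17, adjusted p = 0.0555), no background correction (0.16, adjusted p = 0.0586) or no filter (0.43, adjusted p = 0.0672). Without untreated knockout arrays 2 and 3 it was 0.71 (adjusted p = 0.0153), and a further kept probe gave 0.63 untreated and 0.90 with IFNβ.

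Hoxa11 and Hoxa13 pattern the middle and distal limb. Hoxa11 was at 5.48, 5.87 and 5.36 and at 5.77, 6.07 and 5.53 in the wild type, and at 5.98, 5.97 and 6.61 and at 5.79, 6.48 and 6.09 in the knockout. The genotypes overlapped with IFNβ, where the difference was 0.33 (adjusted p = 0.229), and not without it, where it was 0.61 ± 0.22 (adjusted p = 0.0324). That call was lost without untreated knockout array 3 (0.40, adjusted p = 0.149), without untreated knockout arrays 2 and 3 (0.40, adjusted p = 0.279), without untreated wild-type array 1 (0.57, adjusted p = 0.0877) or 3 (0.51, adjusted p = 0.114), and with the authors' log2 values (0.24, adjusted p = 0.0520), no background correction (0.22, adjusted p = 0.0575) or no filter (0.61, adjusted p = 0.0888).

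Hoxa13 was at 5.07, 5.20 and 5.38 and at 5.56, 5.52 and 5.47 in the wild type, and at 5.90, 5.30 and 5.20 and at 5.74, 5.94 and 5.72 in the knockout. The other probes of Hoxa13 were detected on no array. By the probe shown, only untreated knockout array 1 stood above the untreated wild type. The differences of 0.25 (adjusted p = 0.205) and 0.28 (adjusted p = 0.158) did not pass, but without untreated knockout arrays 2 and 3 the untreated one was 0.69 (adjusted p = 0.00563), and without untreated knockout array 1 the treated one passed at 0.28 (adjusted p = 0.0455). Hoxa5, needed for lung and airway development, had overlapping genotypes, at 7.92, 7.66 and 7.66 against 7.46, 7.46 and 7.71 untreated and at 7.44, 7.35 and 6.96 against 7.28, 7.31 and 7.19 with IFNβ. Its differences were −0.20 (adjusted p = 0.225) and 0.01 (adjusted p = 0.968).

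Genes next to the clusters were compared to see whether the differences ended with the HOX genes. Among 24 protein-coding neighbours, 3 on each side of each cluster in the order of a RefSeq annotation of GRCm38.p6, 19 were tested. In the untreated comparison 3 were higher and 4 lower in the knockout, and in the treated one 4 were higher and 2 lower. The shares of all features were 27.1% and 24.2% untreated and 27.1% and 23.2% treated. The median differences were −0.03 and −0.06, beside 0.05 and 0.06 over all features and −2.20 and −2.82 over the 14 tested genes of the Hoxb, Hoxc and Hoxd clusters. Without untreated knockout arrays 2 and 3, 2 neighbours were higher and 2 lower untreated, with Cbx3, Cbx5 and Atp5g3 no longer called. Beside Hoxb, on chromosome 11, 0 of 5 neighbours were called untreated by limma (1 higher and 0 lower at an unadjusted p under 0.05) and 1, the sorting nexin Snx11, was higher with IFNβ by 0.49 ± 0.12 (adjusted p = 0.00409).

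Beside Hoxc, on chromosome 15, Calcoco1 was detected on no knockout array and was at least 1.68-fold lower untreated (adjusted p = 0.000116); its treated difference did not pass (adjusted p = 0.139). Cbx5, which encodes heterochromatin protein HP1α, was lower in both (−0.39 and −0.40). Beside Hoxd, on chromosome 2, Lnpk was detected on no wild-type array and on all 6 knockout arrays. It was at least 1.22-fold higher untreated (adjusted p = 0.00589) and at least 1.49-fold higher with IFNβ (adjusted p = 0.00448), opposite in direction to the 5 tested Hoxd genes. Atp5g3 was higher by 0.26 and 0.25. The calls of Atp5g3 and the untreated call of Cbx5 were lost when single arrays were left out, with differences between 0.21 and 0.29 for Atp5g3 and between −0.51 and −0.27 for Cbx5. Beside Hoxa, on chromosome 6, Snx10 had differences of 1.90 ± 0.13 (adjusted p = 9.55e-08) and 1.17 ± 0.13 (adjusted p = 6.02e-06), Skap2 was lower by −0.74 and −0.62, and Cbx3 was lower untreated (−0.42, adjusted p = 0.00574; −0.27, adjusted p = 0.198, without untreated knockout arrays 2 and 3). The homeobox genes Evx1 and Evx2 at the high-numbered ends of Hoxa and Hoxd were not detected often enough to be tested, nor were Ttll6, Mtx2 and Hnrnpa3. No non-coding gene of the clusters was tested.

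**Figure D3:**
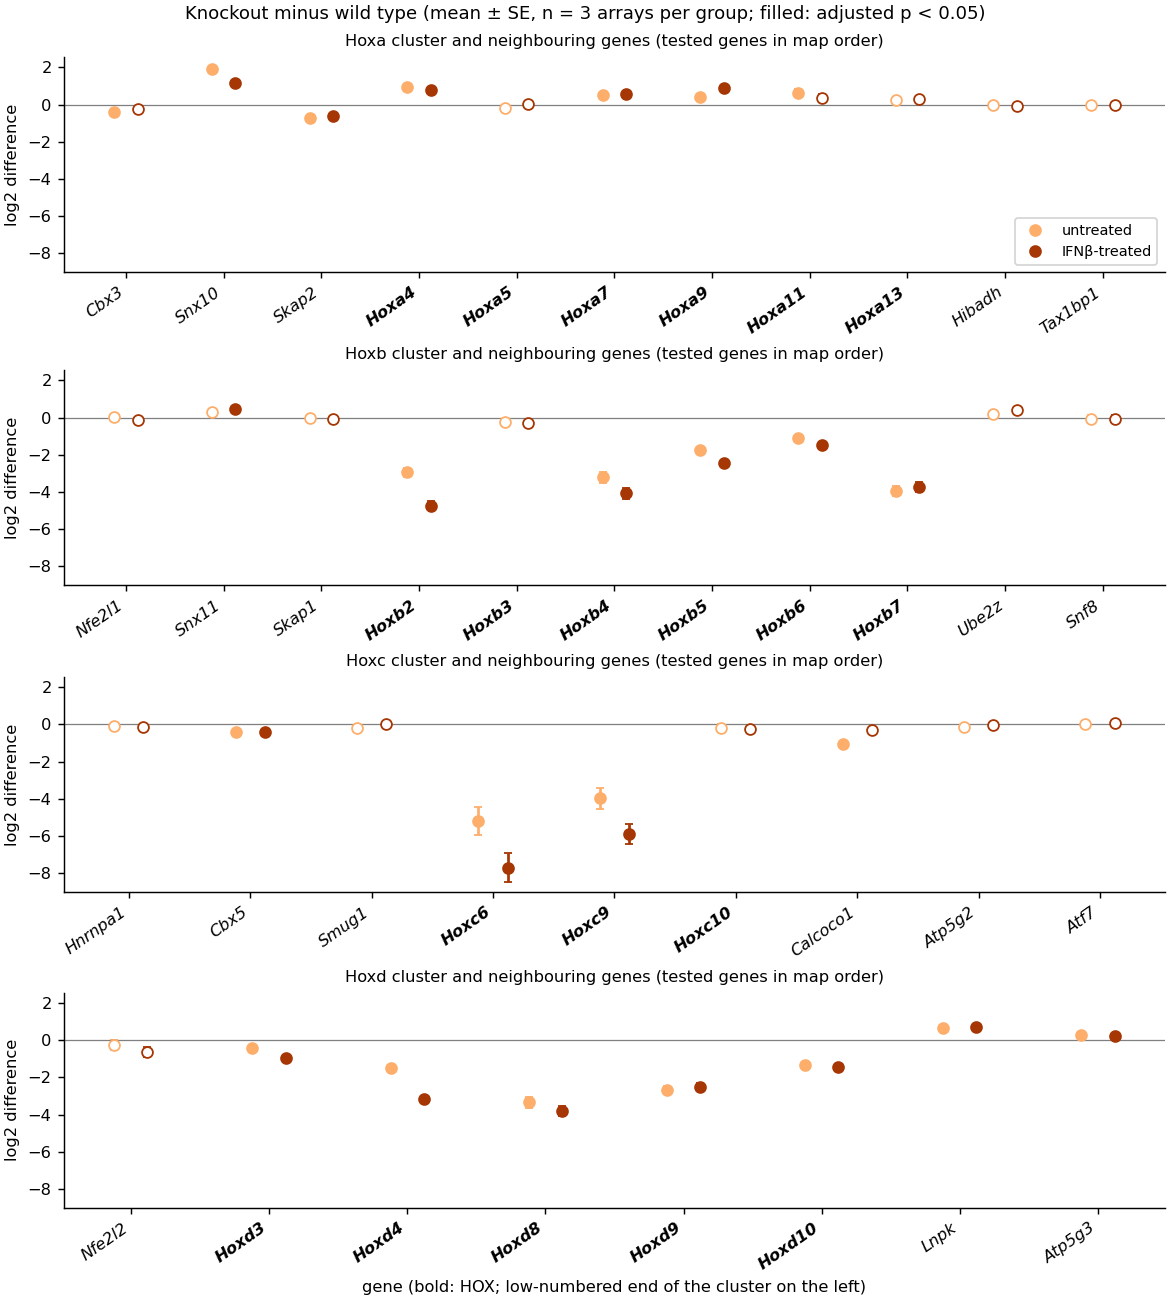
Log2 difference of knockout minus wild type (vertical axis, mean ± SE, n = 3 arrays per group) for the tested genes of each cluster (bold) and their tested neighbours in map order, untreated in light and with IFNβ in dark orange, filled where the adjusted p is under 0.05. The points are fitted values, also for genes that 1 genotype did not detect, such as Calcoco1, Lnpk and, with IFNβ, Hoxc6. The fitted values of the Hoxb and Hoxc genes reach −4.73 and −7.71 while those of their tested neighbours lie between −1.05 and 0.49.

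The third comparison asked how the HOX genes responded to IFNβ in wild-type cells. Of 20 tested members, 4 rose, against 6.27% of all features, and 1 fell, against 7.57%; called either way were 5, against 13.8%. Without untreated knockout arrays 2 and 3, which enter through the shared error, 5 rose and 1 fell, against 5.97% and 6.45%. The median change was 0.21, beside −0.06 over all features. Groups did not overlap for 8 members that were higher and 2 that were lower, against 10.6% and 19.7% of all features. The 4 that rose, Hoxb2, Hoxb5, Hoxd3 and Hoxd4, belong to Hoxb and Hoxd and have paralogue numbers from 2 to 5. All 6 tested Hoxb genes had positive changes, with a median of 0.54. Hoxd3 and Hoxb3 passed the detection filter through the treated wild-type group alone, which favours a rise with IFNβ, so these counts are descriptions. With a stricter filter, at a detection p under 0.01, 3 of 18 tested members rose and 1 fell, beside 745 and 980 of 11045 features. Of 7 tested genes numbered 9 to 13, 0 were called by limma (0 higher and 1 lower at an unadjusted p under 0.05).

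Hoxd4 rose by 1.45 ± 0.16 (adjusted p = 3.04e-05), a 2.74-fold increase with no overlap between treated and untreated wild-type arrays. Hoxb2 rose by 1.26 ± 0.26 (adjusted p = 0.00541), 2.39-fold, and Hoxb5 by 0.84 ± 0.13 (adjusted p = 0.000658), 1.79-fold, each without overlap. Hoxd3 rose by 0.55 ± 0.12 (adjusted p = 0.0108) from a level near background, and with the authors' log2 values the change was 0.16 (adjusted p = 0.0882) and without background correction 0.15 (adjusted p = 0.0965). Hoxb4 was higher on all 3 treated arrays, by 0.80 ± 0.30, and did not pass (adjusted p = 0.0988). It passed without untreated knockout arrays 2 and 3 (adjusted p = 0.00340), without untreated knockout array 1 (adjusted p = 0.0107) or 3 (adjusted p = 0.0256), and with the authors' log2 values (0.67, adjusted p = 0.00186).

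Hoxa5 fell by 0.50 ± 0.13 (−0.50, adjusted p = 0.0246), and this call was lost without untreated wild-type array 1 (−0.41, adjusted p = 0.0956) or treated wild-type array 3 (−0.35, adjusted p = 0.0969). Hoxb6 and Hoxd10 did not pass at 0.27 (adjusted p = 0.214) and −0.36 (adjusted p = 0.116), but without untreated wild-type array 1 they passed at 0.43 (adjusted p = 0.0283) and −0.52 (adjusted p = 0.0248). Genes with large genotype differences had both small and larger changes here. Hoxc6 was at −0.06, Hoxd8 at −0.03 and Hoxb7 at 0.21 (adjusted p = 0.975, 0.972 and 0.668), while Hoxb2 and Hoxb4 were at 1.26 and 0.80. Hoxc9 was at 0.45 (adjusted p = 0.678), with the treated arrays above the untreated ones.

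**Figure D4:**
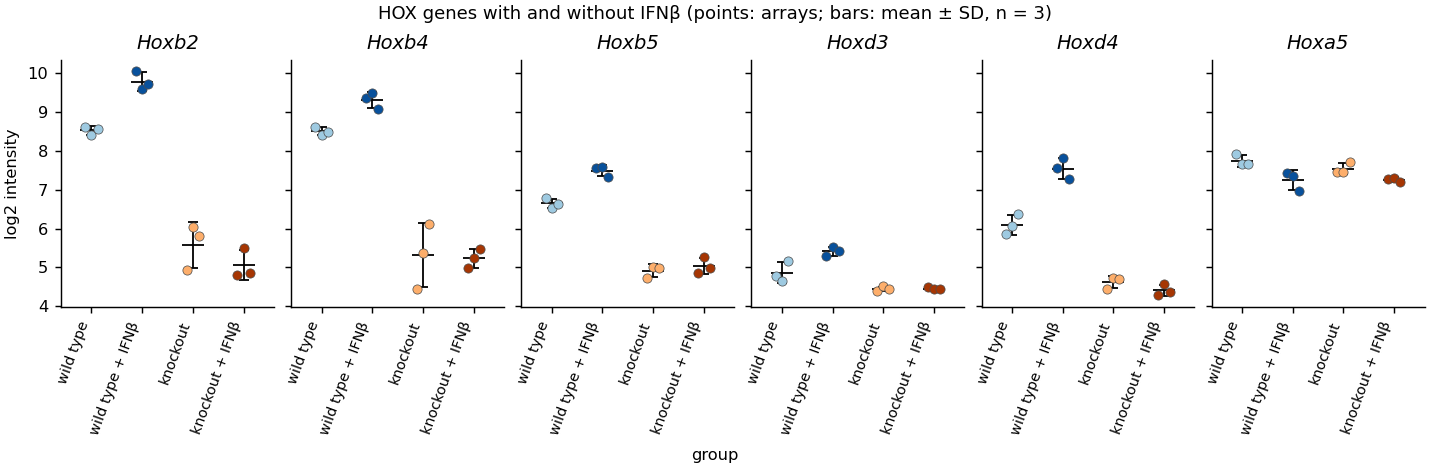
Log2 intensity (vertical axis) of Hoxb2, Hoxb4, Hoxb5, Hoxd3, Hoxd4 and Hoxa5 in the 4 groups, with 1 point per array and bars for the mean ± SD of 3. In wild-type cells the treated arrays lie above the untreated ones for the first 5 genes and below them for Hoxa5, while the knockout arrays of the first 5 lie at or below 6.10.

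In knockout cells, by limma, 0 of 20 members were called with IFNβ, against 4.3% of all features higher, 2.31% lower and 6.61% either way. At an unadjusted p under 0.05, 0 were higher and 4 lower. Of the 20, 11 were detected on all 3 untreated and 10 on all 3 treated knockout arrays. Among the genes that rose in the wild type, Hoxd3 and Hoxd4 were detected on no knockout array. Hoxb2 was detected on 2 untreated and 1 treated knockout array, and Hoxb5 on 2 and 2. A change below background could not be measured. The median change was −0.07, beside −0.05 over all features, and groups did not overlap for 0 members that were higher and 2, Hoxa5 and Hoxd10, that were lower, against 10.1% and 16.4% of all features. Hoxc6 was at −2.57 ± 0.77 (adjusted p = 0.0710) and Hoxc9 at −1.48 ± 0.56 (adjusted p = 0.160). Both values rest on untreated knockout arrays 2 and 3: without these arrays they were 0.18 (adjusted p = 0.643) and 0.31 (adjusted p = 0.726), and without array 1 they were −3.95 (adjusted p = 1.14e-09) and −2.38 (adjusted p = 0.000161). Hoxb7 was at 0.42 (adjusted p = 0.400). Without arrays 2 and 3, where a single array (5.46) stands for the untreated group, it was at 1.09 (adjusted p = 0.0316) and the only 1 of 20 to pass, against 3.37% of all features higher and 0.651% lower. Without array 1, Hoxb2 (−0.86, adjusted p = 0.0238) and Hoxa13 (0.55, adjusted p = 0.0175) were called as well, which made 4 of 20. Over all 12128 features that fit called 450 higher and 166 lower.

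The last comparison tested whether the response differed between genotypes. Of 20 members, 0 had a larger and 1 a smaller response in the knockout, against 0.115% and 0.388% of all features, or 0.503% either way. The 1 was Hoxd4, whose change was 1.45 in the wild type and −0.21 in the knockout, where no array detected it. The difference of the changes was −1.67 ± 0.22 (adjusted p = 0.00390), and it was called whichever single array was left out, with values between −1.80 and −1.53. Without untreated knockout arrays 2 and 3 it was −1.48 (adjusted p = 0.0584), where 0 members were called, against 0.132% and 0.206% of all features. Hoxb2 had a difference of −1.79 ± 0.36 (adjusted p = 0.0533), which passed with the authors' log2 values (−1.26, adjusted p = 0.00179) and without untreated knockout array 1 (−2.12, adjusted p = 0.000697) or treated knockout array 2 (−2.01, adjusted p = 0.0337), and was −1.12 (adjusted p = 0.350) without untreated knockout arrays 2 and 3. Hoxb5 was at −0.72 ± 0.18 (adjusted p = 0.168, and −0.46 and 0.0423 with the authors' log2 values). Hoxb2 and Hoxb5 were not detected on every knockout array of either treatment, so a change below background could not be measured there. Without untreated knockout array 1, Hoxb4, Hoxc6 and Hoxc9 were called too, at −1.31, −3.89 and −2.82, and the count was 5. Calls also rose over all 12128 features in that fit, to 21 larger and 154 smaller responses from 14 and 47.

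Genes known to bind with HOX proteins or to control the clusters were compared between the genotypes from 6 lists. Their counts stand beside 27.1% of all features higher and 24.2% lower untreated, and 27.1% and 23.2% with IFNβ. TALE homeodomain proteins bind DNA together with HOX proteins, and of 9 of them 7 were tested: 2 were higher and 3 lower untreated, and 4 were higher and 3 lower with IFNβ. Pknox2 was at 5.01, 5.29 and 5.18 in untreated wild-type cells and at 7.74, 7.50 and 7.62 in the untreated knockout, a difference of 2.46 ± 0.19 (adjusted p = 3.05e-07), and the difference with IFNβ was 2.83 ± 0.19 (adjusted p = 9.67e-08). Meis2 was lower by −2.11 ± 0.12 (adjusted p = 3.67e-08) and −2.30 ± 0.12 (adjusted p = 1.92e-08), and Meis1 by −1.33 ± 0.16 and −1.28 ± 0.16. The median of the list was −0.04 untreated and 0.31 with IFNβ, so it had members far to both sides of 0. In the fit without untreated knockout arrays 2 and 3, 2 were higher and 2 lower untreated.

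Polycomb repressive complex 2 places the repressive H3K27 methyl mark on HOX clusters. Of 11 genes of the complex 8 were tested, and 4 were higher and 0 lower in both comparisons, beside the shares of all features just given, with medians of 0.41 and 0.47. Phf19, which brings the complex to chromatin, was higher by 0.94 ± 0.12 (adjusted p = 2.84e-05) and 0.92 ± 0.12, Mtf2 by 0.57 and 0.61, and Aebp2 by 0.48 and 0.60. The methyltransferase Ezh2 was at 0.29 (adjusted p = 0.135) and 0.35 (adjusted p = 0.0718), and its partner Eed at 0.34 (adjusted p = 0.167) and 0.49 (adjusted p = 0.0540). Their partner Suz12 was higher untreated by 0.52 ± 0.10 (adjusted p = 0.00104). With IFNβ its mean was 11.53 in the knockout and 11.08 in the wild type.

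Polycomb repressive complex 1, which reads that mark and ubiquitinates histone H2A, had 18 of 20 genes tested. Untreated, 3 were higher and 5 lower, with a median of −0.02, and with IFNβ 2 were higher and 3 lower, with a median of 0.02. The untreated counts were 2 and 5 in the fit without untreated knockout arrays 2 and 3. Scmh1 was lower by −1.35 ± 0.13 (adjusted p = 2.90e-06) and −1.01 ± 0.13, Cbx8 by −0.51 and −0.74, and Pcgf6 was higher by 0.63 and 0.68. The untreated call of Cbx8 was lost without untreated knockout array 1. Pcgf5, named here after its values were seen, rose with IFNβ in both genotypes, by 0.87 (adjusted p = 0.000896) in the wild type and 1.0 (adjusted p = 0.000456) in the knockout.

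Of 12 Trithorax-group and H3K27 demethylase genes, which oppose Polycomb repression, 11 were tested: 3 were higher and 2 lower untreated, and 4 were higher and 2 lower with IFNβ. Kdm6a, an X-linked demethylase of H3K27, was at 9.97, 9.82 and 10.01 in untreated wild-type cells and at 8.97, 8.95 and 8.78 in the knockout, lower by −1.04 ± 0.10 (adjusted p = 2.43e-06) and by −1.12 ± 0.10 with IFNβ. Xist, given above, was lower in the knockout as well, and what part the X chromosome has in the Kdm6a difference was not tested. Rbbp5, a core subunit of H3K4 methyltransferases, was higher by 0.82 and 0.89, and Psip1, which tethers Trithorax complexes to chromatin, by 0.77 and 0.72.

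Of 16 genes of retinoid signalling 7 were tested, and 2 were higher and 1 lower in both comparisons. Crabp2, which carries retinoic acid to its receptor, had differences of 2.61 ± 0.26 (adjusted p = 2.66e-06) and 2.98 ± 0.26 (adjusted p = 7.86e-07), and Aldh1a3, which makes retinoic acid, of 1.80 ± 0.17 and 1.68 ± 0.17. Crabp1, a further retinoic acid binding protein, was lower by −0.73 and −0.77. By limma 0 of the 7 were called with IFNβ in either genotype, also at an unadjusted p under 0.05, where 0 passed. Of 11 other regulators 5 were tested, and 2 were higher and 1 lower in both comparisons; the untreated counts were 1 and 1 in the fit that leaves out untreated knockout arrays 2 and 3. Egr2, which activates Hoxb2 in the hindbrain, was lower by −2.14 ± 0.18 (adjusted p = 7.04e-07) and −1.61 ± 0.18 (adjusted p = 8.89e-06), and it fell with IFNβ in wild-type cells (−0.79, adjusted p = 0.0112). The chromatin insulator Ctcf was higher by 0.49 and 0.61. Gmnn, whose product geminin binds HOX proteins, was at 0.37 (adjusted p = 0.132) untreated and higher by 0.65 (adjusted p = 0.0126) with IFNβ, a call lost without treated wild-type array 1 or treated knockout array 3.

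**Figure D5:**
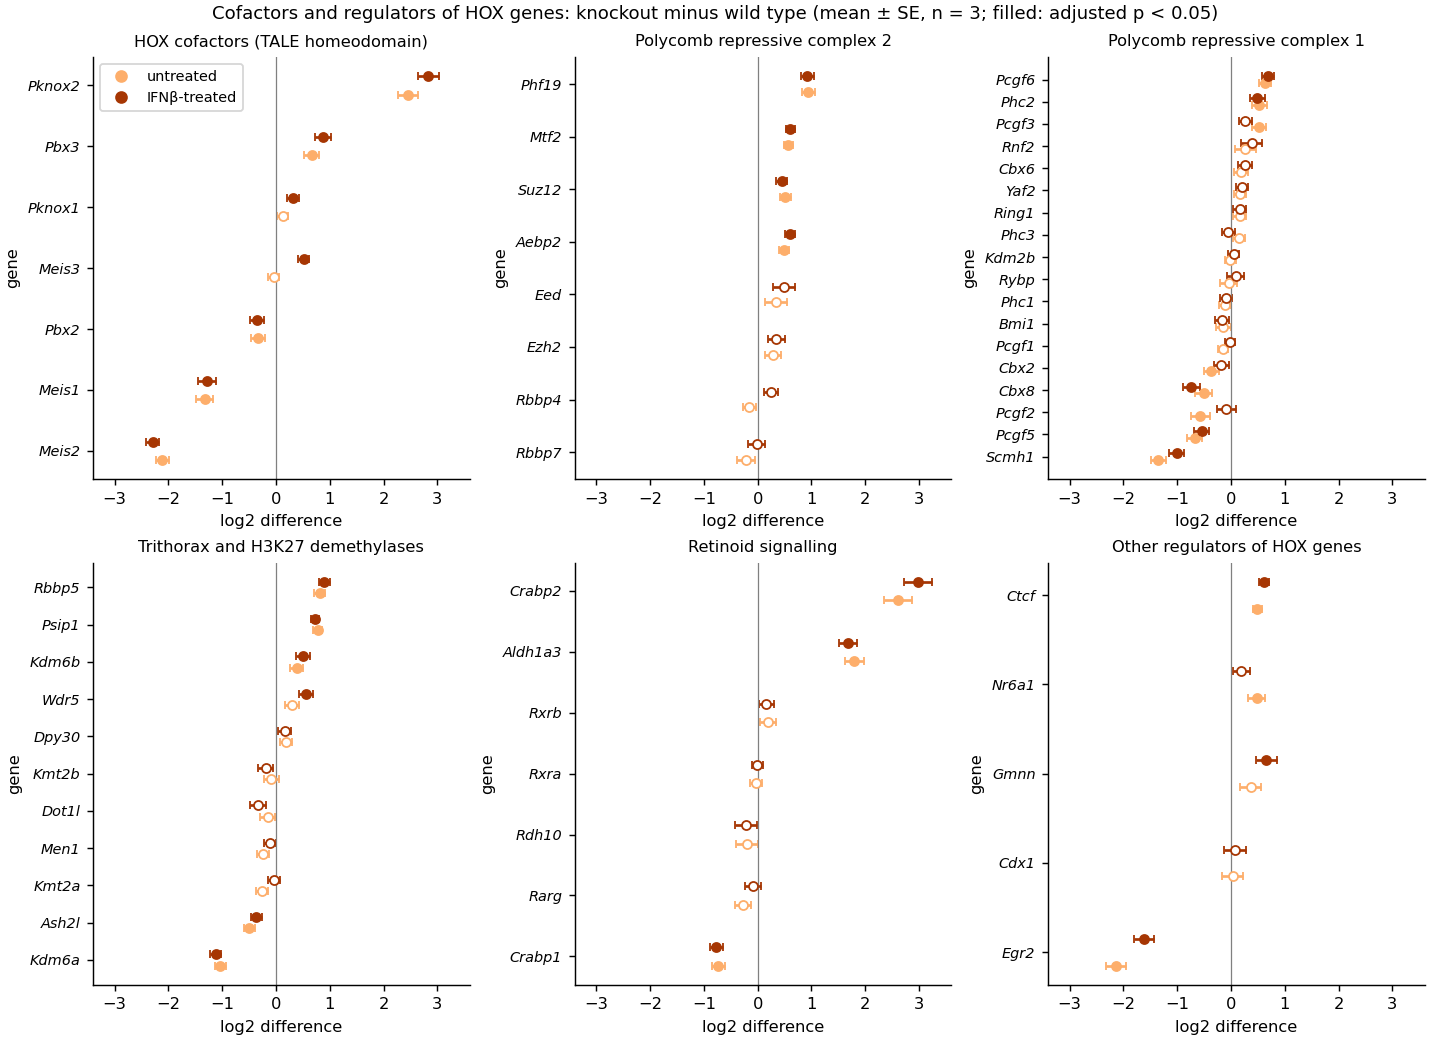
Log2 difference of knockout minus wild type (horizontal axis, mean ± SE, n = 3 arrays per group) for the tested genes of 6 lists of HOX cofactors and regulators, untreated in light and with IFNβ in dark orange, filled where the adjusted p is under 0.05. The points farthest from 0 are Pknox2, Crabp2 and Aldh1a3 to the right and Meis2, Egr2, Meis1 and Scmh1 to the left.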

How the data were processed

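RNA of 12 samples was measured on single-colour bead arrays. The deposited table holds 1 intensity per probe and array with no background subtracted, and, per the file headers, a detection p-value for each. A further deposited table holds log2 values that equal the quantile-normalized log2 intensities of the first within 0.000639, so the authors subtracted no background. Intensities were corrected with normexp, which estimated background from the detection p-values, offset by 16, quantile-normalized and log2-transformed (neqc, limma 3.58.1 in R 4.3.3). Of 45281 probes, 34885 had 1 gene symbol in the platform annotation, 18 several and 10378 none. Detection kept 17837 probes. The kept probe with the highest mean stood for a gene, and unnamed probes for themselves, which gave 12128 features, 9723 of them named. A mean per group was fitted to all arrays with limma, and 5 contrasts were tested two-sided. Replicate numbers were not used to pair the samples in the main fit. Deviations from group means correlated between −0.12 and 0.18 over 18 same-number pairs, with 4 over 0.1. Over 36 pairs of different number they correlated between −0.24 and 0.20, with 1 over 0.1. Alternatives changed the value table, background correction, scaling, filter, probe choice, replicate block and arrays used. The number of arrays limits the precision. The 38 HOX genes, the lists and the alternatives were chosen with earlier results of these data known. Named were all HOX genes, 3 neighbours per side of a cluster, and up to 3 called members of each list with the largest genotype difference. Ezh2, Eed, Suz12 and Pcgf5 were named in addition.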

Additional observations from a re-analysis of the deposited data

Results flagged for a closer look

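The response of Hoxd4 to IFNβ differed between the genotypes by a test of that difference: knockout minus wild type was −1.67 ± 0.22 (limma, adjusted p = 0.00390). Hoxd4 rose in all 3 treated wild-type arrays above all 3 untreated ones and was detected on none of the 6 knockout arrays, so a change below the background of the knockout arrays could not be measured. Without untreated knockout arrays 2 and 3 the difference was −1.48 (adjusted p = 0.0584).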

How the results depend on the processing

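The counts of called HOX genes between genotypes and for IFNβ in the wild type stayed within 1.5 times under every alternative run: 14 to 16 against 16 untreated, 14 to 16 against 15 with IFNβ and 4 to 6 against 5. The untreated higher count, 4, was 2 with the authors' log2 values, no background correction and no filter, and without untreated wild-type array 1 or 3. Leaving out single arrays gave 13 to 16, 15 to 16 and 4 to 6. For IFNβ in the knockout, with 0 called, median scaling gave 2 and the fit without untreated knockout arrays 2 and 3 gave 1, and single arrays left out gave 0 to 4. For the difference of the responses, with 1 called, the authors' log2 values and no background correction gave 3 each, median scaling, the stricter filter and the mean of the kept probes 2 each, and the fit without untreated knockout arrays 2 and 3 gave 0; single arrays left out gave 1 to 5. No called difference changed sign. The replicate block gave 16, 15, 5, 0 and 1 called genes, as without it, so it changed no count. Median scaling put the median of all features at −0.14 for IFNβ in the knockout, where it called 466 features higher and 886 lower against 522 and 280. The cause of these shifts was not tested. Counting each gene under each alternative, calls were lost 15 times untreated (Hoxa9, Hoxa11 and Hoxd3), 4 times for IFNβ in the wild type (Hoxa5 and Hoxd3) and 1 time for the difference of responses (Hoxd4), and gained 1, 2, 8, 8 and 12 times in the 5 comparisons in the order of the text. The slide as a block was not run, since the headers name no slide. Hoxb6, Hoxd3 and Hoxd4 were detected on no knockout array, which leaves bounds or no fold for them.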
